A study of Mus musculus with 6 samples.

Results

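The genes described are 8 genes of antigen presentation by major histocompatibility complex (MHC) class II: the chains H2-Aa, H2-Ab1 and H2-Eb1, the invariant chain Cd74, the peptide loading chains H2-DMa, H2-DMb1 and H2-Oa, and the transcriptional activator Ciita. They were taken by name, out of 18194 genes that the array's annotation gives a probe set of their own. 7 of the 8 had such a probe set. H2-DMb1 was covered by 2 probe sets that the annotation assigns to H2-DMb2 as well, so its own level was not measured. The samples were 6 tumours that had formed under the skin from injected KPC1199 cells, a line of mouse pancreatic cancer (ductal adenocarcinoma), with 3 from lactating mice (lactation replicates 1 to 3) and 3 from control mice (control replicates 1 to 3). Lactation-group mice received the cells when pregnant or at the start of nursing, and tumours from both groups were taken 20 days after injection at matched age. The labels give neither the strain of the mice nor the sex of the controls, and do not say which lactation-group mice were still pregnant at injection. No genotype, drug or allele is named for either group. The replicates are called biological, with 1 Affymetrix array for each tumour.

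MHC class II molecules hold peptides from engulfed proteins at the cell surface, where CD4+ T cells read them. Each molecule is a pair of an alpha and a beta chain, guarded by the invariant chain until H2-DM swaps a fragment of it for a peptide, a step that H2-O restrains. Dendritic cells, macrophages and B cells make these proteins steadily, and interferon gamma can induce them in other cells, epithelial tumour cells among them. Ciita does not bind DNA itself: it docks on the RFX and NF-Y complexes, which sit on an X box and a Y box just upstream of class II genes.

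Promoters of members are shown because class II genes are known to be switched on together through the X and Y boxes. 5 of the 8 members had a promoter window in the RefSeq table of build GRCm38.p6, which runs from 250 bases before a transcription start to 50 after it, and H2-DMa had a pair of windows. In the lines below, the stretch from 120 to 21 bases before the start is printed 5′ to 3′ along the gene's strand, and capitals mark matches, on either strand, to ATTGG (the Y box core) or to the X box letters GCAACNG or TGACGT, or to an 11-letter X box motif that reads AGCAACTGATG in H2-Eb1 and AGTAACTGATG in H2-DMb1, with any base allowed at the third and the seventh letter.
H2-Aa: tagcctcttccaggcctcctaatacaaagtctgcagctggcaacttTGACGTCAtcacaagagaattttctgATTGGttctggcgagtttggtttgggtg
H2-Eb1: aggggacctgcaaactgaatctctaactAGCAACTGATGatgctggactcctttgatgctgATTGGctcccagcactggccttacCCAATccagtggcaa
H2-DMb1: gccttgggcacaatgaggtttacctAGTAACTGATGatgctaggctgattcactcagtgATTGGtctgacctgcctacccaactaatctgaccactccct
H2-Oa: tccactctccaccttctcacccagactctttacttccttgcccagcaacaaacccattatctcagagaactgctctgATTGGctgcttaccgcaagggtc

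These stretches lie at chr17:34287844-34287943 on the minus strand for H2-Aa, and on the plus strand at chr17:34305747-34305846 for H2-Eb1, chr17:34153071-34153170 for H2-DMb1 and chr17:34092259-34092358 for H2-Oa. The 11-letter motif was in the windows of H2-Eb1 and H2-DMb1 and in 0.298% of all 32851 windows of the table. In H2-Eb1 it ended 22 bases before the first ATTGG, and in H2-DMb1 23 bases before it. GCAACNG overlaps that motif in H2-Eb1 and was in 12.7% of all windows. TGACGT matched H2-Aa on both strands in overlapping letters, ending 20 and 18 bases before ATTGG, and was in 7.51% of all windows. ATTGG, with or without another motif, was in 5 of the 6 member windows and in 37.4% of all windows. ATTGG together with any of the other motifs was in 3 of the 6 member windows and in 7.1% of all windows. H2-Oa had ATTGG and no X box match. H2-DMa is not printed, since its ATTGG lay outside the stretch shown and it had no X box match. A match describes letters and does not show that a factor binds there.

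No class II gene passed the test over all genes between tumours of lactating and control mice. The classical chains H2-Aa and H2-Ab1 had mean levels 0.919 and 0.906 times those of controls, and H2-Eb1 and the invariant chain Cd74 had ratios of 0.976 and 0.999. Ciita, the activator of the group, had the largest ratio, 1.20, on an added-constant scale explained next. The groups overlapped for all 7 measured genes and for all 15 of their own probe sets. The single tumours came in a like order for most members: lactation replicate 2 and control replicate 2 were the 2 highest arrays for 12 of the 15 probe sets, and lactation replicate 3 was the lowest for 9. Several of these probe sets read the same gene, and the share of all genes with this order was not counted.

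The deposited values are MAS5 signals on a linear scale, and their trimmed mean was 500.0 on every array. Differences here are on the log2(signal + 16) scale, lactation minus control, which understates changes of dim genes. limma tested 11623 genes that lay at or above the array's median on at least 3 of the 6 arrays, and all 7 members passed this level filter. At a Benjamini-Hochberg adjusted p under 0.05 the share of genes called was 0%, with 0 of 7 members. At an unadjusted p under 0.05 it was 2.27%, or 264 genes, again with 0 of 7 members. Groups did not overlap for 6.9% of all genes tested, 3.71% with lactation higher and 3.19% with lactation lower, and for 0 of 7 members. The median difference over the 7 members was -0.02 and that over all genes tested was -0.01. Array medians ran from 99.3 to 111 signal units, and the number of arrays limits the precision. All 11 ductal epithelial markers looked for, the keratins Krt8, Krt18 and Krt19 among them, passed the level filter.

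H2-Aa encodes the alpha chain of I-A, the mouse class II molecule that pairs with the H2-Ab1 beta chain. Its brightest probe set read 14609, 17373 and 13451 in lactation replicates 1 to 3 and 16593, 17074 and 15539 in control replicates 1 to 3. Lactation replicate 2 was thus the highest array and the other lactation tumours the 2 lowest, so the groups overlapped. The difference was -0.12 with a standard error of 0.10 and a 95% interval from -0.36 to 0.11 (limma, adjusted p = 1).

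H2-Ab1 read 8737, 10570 and 7657 in lactation and 9207, 10429 and 9894 in controls. The order of the arrays was close to that of its partner chain, with lactation replicate 2 highest and lactation replicate 3 lowest. Its difference was -0.14 with a standard error of 0.12 and an interval from -0.43 to 0.14 (limma, adjusted p = 1). The lower bound is a ratio of 0.744, so a larger fall in the lactation group lies outside the interval.

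H2-Eb1, the beta chain of the second mouse class II molecule I-E, read 13009, 13637 and 10593 in lactation and 12835, 13995 and 11259 in controls. The lowest array of each group was its replicate 3, and the groups covered almost the same range. The difference was -0.04 with a standard error of 0.12 and an interval from -0.32 to 0.25. The partner of this chain, H2-Ea, is listed as a transcribed pseudogene in the C57BL/6J reference, and its 3 probe sets read between 1.78 and 38.6 on all 6 arrays, under every array's median. The strain of the hosts is not in the labels.

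Cd74, the invariant chain, read 14901, 17361 and 14605 in lactation and 15715, 16469 and 14620 in controls. It had the narrowest range of the 7 genes over the 6 arrays, 0.25 on the log2 scale. The difference was -0.00074, with a standard error of 0.09 and an interval from -0.20 to 0.20, or ratios from 0.869 to 1.15. Cd74 therefore gave the tightest bound of the group.

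**Figure D1:**
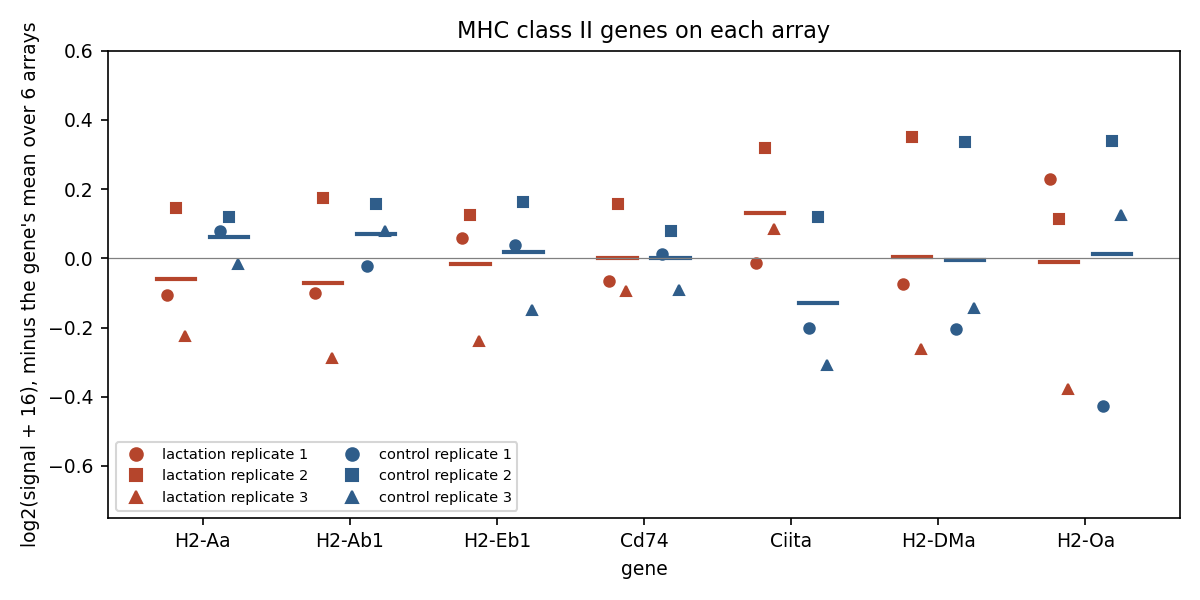
Each point is 1 array's log2(signal + 16) for a class II gene, minus that gene's mean over the 6 arrays (vertical axis, log2 units), for lactation (red) and control (blue), with marker shape giving the replicate number and short lines the group means. The groups overlap for every gene, the squares (replicate 2 of each group) sit near the top, and Ciita has its lactation mean above its control mean by 0.26.

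The remaining probe sets of the chains put the bright values in context. H2-Aa had 4 probe sets and H2-Ab1 3, and with H2-Eb1 7 of these 8 had a negative difference, from -0.14 to -0.04. The exception was H2-Aa probe set 1443783_x_at, with a difference of 0.08 and a standard error of 0.20. This dimmer probe set read 2044, 2780 and 1790 in lactation and 2015, 2538 and 1689 in controls, and spanned 0.71 on the log2 scale over the 6 arrays where the brightest H2-Aa probe set spanned 0.37. Probe sets whose names end in _x_at or _s_at hold probes that can match more than 1 transcript, and these include the probe sets used above for H2-Aa and H2-Ab1. Probe sets of a gene are not replicates of each other, since they read the same RNA on the same arrays.

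H2-DMa is the alpha chain of the H2-DM exchange factor. Its brighter probe set read 2754, 3702 and 2414 in lactation and 2513, 3666 and 2622 in controls. In each group replicate 2 stood well above the other 2 tumours, and the group means differed by 0.01 with a standard error of 0.20 and an interval from -0.46 to 0.48. The probe sets that H2-DMb1 and H2-DMb2 share, 1418638_at and 1449580_s_at, had differences of 0.14 and 0.08 with standard errors of 0.17 and 0.13. They read 1361, 1909 and 1568 in lactation against 1489, 1740 and 1182 in controls for the first, and 2260, 2748 and 2304 against 2363, 2595 and 1966 for the second. The same pair of arrays was highest here too. The 3 probe sets assigned to H2-DMb2 alone had differences of 0.34, -0.13 and 0.25 with standard errors of 0.21, 0.33 and 0.33, and on each of them lactation replicate 3 was the highest array.

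H2-Oa, the alpha chain of H2-O, which restrains H2-DM and is best known from B cells, was dimmer. It read 280 and 258 in lactation replicates 1 and 2 and 179 in lactation replicate 3, against 172, 304 and 260 in controls. Each group thus held 1 low tumour, and the difference of -0.02 had a standard error of 0.25 and an interval from -0.62 to 0.57. Its beta partner H2-Ob had a difference of -0.06 with a standard error of 0.27.

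**Figure D2:**
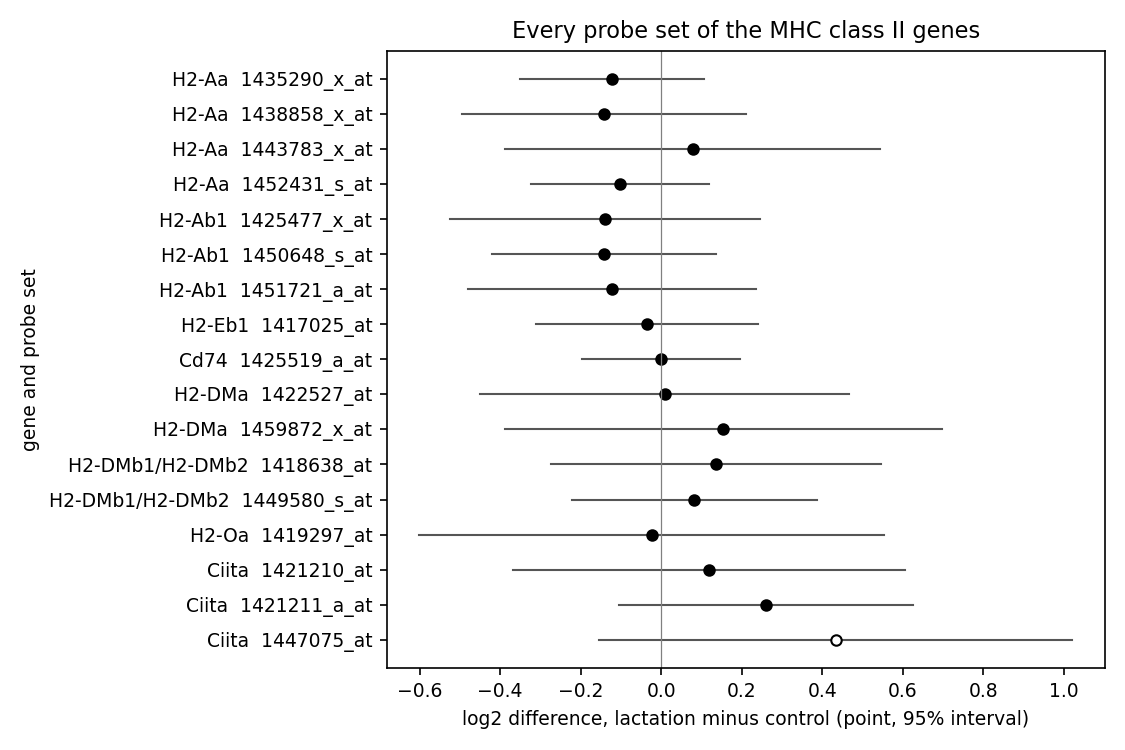
Log2 difference between lactation and control (horizontal axis, log2 units; point, with its 95% interval from limma as a line) for the 15 single-gene probe sets of the class II genes and the 2 shared by H2-DMb1 and H2-DMb2 (vertical axis); the open point lay below the level filter. Every interval spans 0, 7 of the 8 chain probe sets lie left of 0 and all 3 Ciita probe sets lie right of it.

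Ciita had a positive difference where the chains had negative ones. Its brightest probe set read 426, 541 and 457 in lactation and 372, 469 and 344 in controls. Control replicate 2 lay above lactation replicates 1 and 3, so the groups overlapped, while the other 2 controls were the lowest arrays. The difference was 0.26 with a standard error of 0.16 and an interval from -0.11 to 0.63 (limma, unadjusted p = 0.138, adjusted p = 1). The other Ciita probe sets, 1421210_at and the dim 1447075_at, had differences of 0.12 and 0.43 with standard errors of 0.21 and 0.25. Lactation replicate 2 was highest on all 3.

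To set the members beside each other, the log2 value of H2-Ab1 was subtracted from that of another member on the same array, which removes any scaling of the whole array. Ciita relative to H2-Ab1 was 0.29, 0.35 and 0.57 in lactation replicates 1 to 3 and 0.02, 0.16 and -0.19 in control replicates 1 to 3, each given relative to the control mean. All 3 lactation tumours lay above all 3 controls, by 0.40 on average with a standard error of 0.13. An exact permutation test (two-sided) gave p = 0.1, which no split of 3 and 3 arrays can go below, and 0.4 after Benjamini-Hochberg adjustment over the 4 members compared in this way, so the test could not reach 0.05. Of all other genes tested, 4.5% also had every lactation array above every control array relative to H2-Ab1.

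The other members did not separate in this way. Relative to H2-Ab1, Cd74 differed by 0.14 (standard error 0.09, exact permutation p = 0.3), H2-DMa by 0.15 (standard error 0.14, exact permutation p = 0.4) and H2-Oa by 0.12 (standard error 0.22, exact permutation p = 0.6), with overlapping groups in each case. All 4 differences were positive and share H2-Ab1, whose own mean was lower in lactation. For Ciita the choice of partner and of probe set mattered, as tried after the values were seen. The groups stayed apart against H2-Aa (0.38) and Cd74 (0.26), and overlapped against H2-Eb1 (0.30). With Ciita probe set 1421210_at they overlapped, at 0.26. With the dim 1447075_at they did not, at 0.57, but it read only 29.7 to 71.1 and lay below the level filter. The share of other genes that separate against H2-Aa or Cd74 was not counted. H2-Aa itself varied with H2-Ab1 over the arrays (Pearson r = 0.918), so it is not an independent partner.

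**Figure D3:**
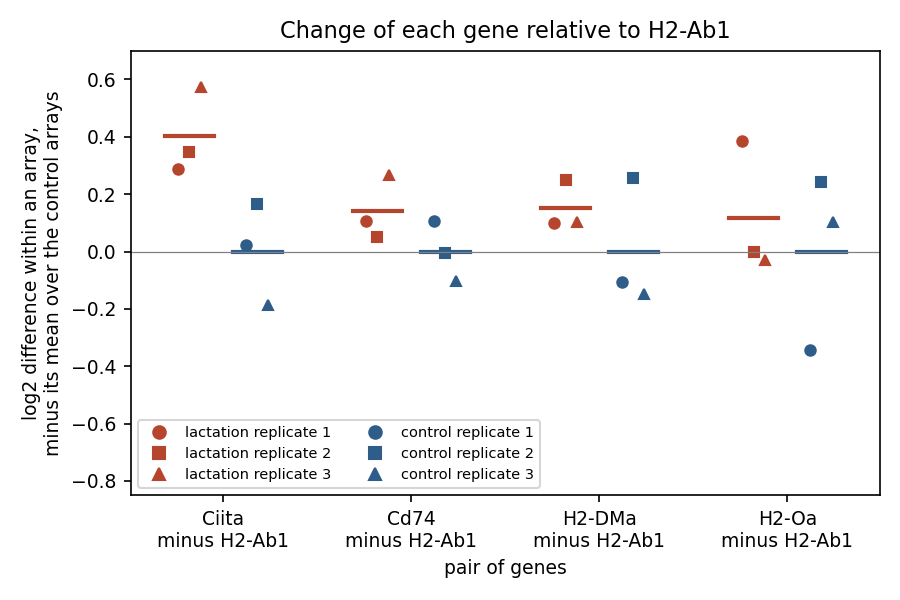
Log2 value of 4 class II genes minus that of H2-Ab1 on the same array, relative to the mean over control arrays (vertical axis, log2 units), for lactation (red) and control (blue), with marker shape giving the replicate number and short lines the group means. For Ciita the 3 lactation points, from 0.29 to 0.57, lie above the 3 control points, from -0.19 to 0.16, and for Cd74, H2-DMa and H2-Oa the groups overlap.

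Over the 6 arrays H2-Ab1 went up and down with its partner H2-Aa, with a Pearson r of 0.918 (exact permutation p = 0.0125, adjusted p = 0.075 over 6 relations) and a Spearman rho of 0.943 (exact permutation p = 0.0167, adjusted p = 0.1). Without lactation replicates 2 and 3, the arrays farthest from the median of H2-Ab1, the r was 0.701. With H2-DMa the r was 0.791 and the rho 0.829 (exact permutation p = 0.0611 and 0.0583, adjusted p = 0.183 and 0.117), and r was 0.673 without those 2 arrays. With Cd74 the r was 0.728 and the rho 0.829 (exact permutation p = 0.0986 and 0.0583, adjusted p = 0.19 and 0.117), and r was 0.497 without them.

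Relations with the rest were looser, and none of the 6 passed after adjustment. H2-Eb1 had an r of 0.696 and a rho of 0.714 (exact permutation p = 0.126 and 0.136, adjusted p = 0.19 and 0.204), and its r was 0.084 without the 2 arrays. Leaving these out narrows the range of H2-Ab1, which can lower an r by itself. The drop therefore cannot show what a relation rests on. H2-Oa had an r of 0.629 and a rho of 0.314 (exact permutation p = 0.193 and 0.564, adjusted p = 0.232 and 0.564), with an r of 0.372 without those 2 arrays. Ciita had the lowest r with H2-Ab1, 0.158, and a rho of 0.429 (exact permutation p = 0.764 and 0.419, adjusted p = 0.764 and 0.503), with an r of 0.176 without them. In lactation replicate 3 the mean of the 3 chains was 0.25 below its average over arrays and Ciita was 0.08 above its own; in control replicate 1 the chains were 0.03 above and Ciita 0.20 below.

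The genes whose pattern over the 6 arrays was most like the mean of H2-Aa, H2-Ab1 and H2-Eb1 were sought among 2232 tested genes with an SD over arrays of at least 0.3 on the log2 scale. They were Pld4 (Pearson r = 0.993), Rnase6 (0.987), Hcls1 (0.983), Aif1 (0.981) and Lair1 (0.981), given as a description of a search over many genes, with no test. Pld4, an endolysosomal nuclease, read 1099, 1484 and 716 in lactation and 1260, 1616 and 1154 in controls. Aif1, a calcium-binding protein of macrophages also called Iba1, read 2459, 3181 and 1485 against 2574, 3019 and 2321. Both had the high replicate 2 and the low lactation replicate 3 of the chains, over a wider span, and the search selected for both traits. The SDs over arrays of H2-Aa, H2-Ab1 and H2-Eb1 were 0.14, 0.18 and 0.16, under the 0.3 that it required. Rnase6 is a secreted ribonuclease, Hcls1 a cytoskeletal adaptor of blood cells and Lair1 an inhibitory collagen receptor of leukocytes. The differences of the 5 genes between groups ran from -0.33 to -0.17 with standard errors from 0.23 to 0.27 (limma, adjusted p = 1 for each). Without lactation replicate 3 they ran from -0.06 to 0.09.

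Marker genes of cells that carry class II molecules varied over the same arrays. In bulk tissue, fewer cells of a type and less RNA per cell cannot be told apart. Of 14 macrophage genes 13 could be tested, 12 with a negative difference, a median of -0.27 and 0 past the adjusted threshold. Their summed signal ran from 49025 to 65626 in lactation and from 63238 to 72013 in controls, and their mean log2 level was lowest in lactation replicate 3 (-0.43 from the average over arrays) and highest in control replicate 2 (0.25). Of 15 dendritic cell genes 12 could be tested, 8 negative and 4 positive, with a median of -0.09 and 0 called. Their mean was also lowest in lactation replicate 3 (-0.37) and highest in control replicate 2 (0.36), with summed signals from 10238 to 12814 in lactation and from 9929 to 13715 in controls. It was nearly as low in control replicate 1 (-0.32), where the mean of the chains was 0.03 above its average over arrays. Fscn1 weighed most in the dendritic cell sums. It alone read 5811, 6357 and 6153 in lactation and 5358, 5930 and 8566 in controls.

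B cell genes were dim: none of the 9 with a probe set passed the level filter, and 8 were under the array median on all 6 arrays, Ms4a1, the gene of CD20, and Cd79a among them. Their summed signal ran from 341 to 521 in lactation and from 373 to 454 in controls. Of 10 tested T cell genes 6 were negative, with a median of -0.03, 0 called and sums from 4253 to 4979 against 3591 to 5735. Thy1 weighed most in these sums. It alone read 2020, 2926 and 2899 in lactation and 1693, 2258 and 4124 in controls. Ductal epithelial genes had their highest mean in lactation replicate 3 (0.49) and their lowest in control replicate 2 (-0.37). On those arrays the macrophage, dendritic cell and T cell lists had their lowest and highest means. All 11 ductal genes had a positive difference with a median of 0.29 and 0 called, and sums from 76545 to 108252 against 71472 to 90595. Fibroblast genes had 9 of 10 and endothelial genes 7 of 8 negative differences, with medians of -0.07 and -0.15, 0 called, and sums of 108196 to 119261 against 104852 to 143093 and of 3615 to 3966 against 3448 to 5423. The part of these cell types in the class II values was not tested.

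**Figure D4:**
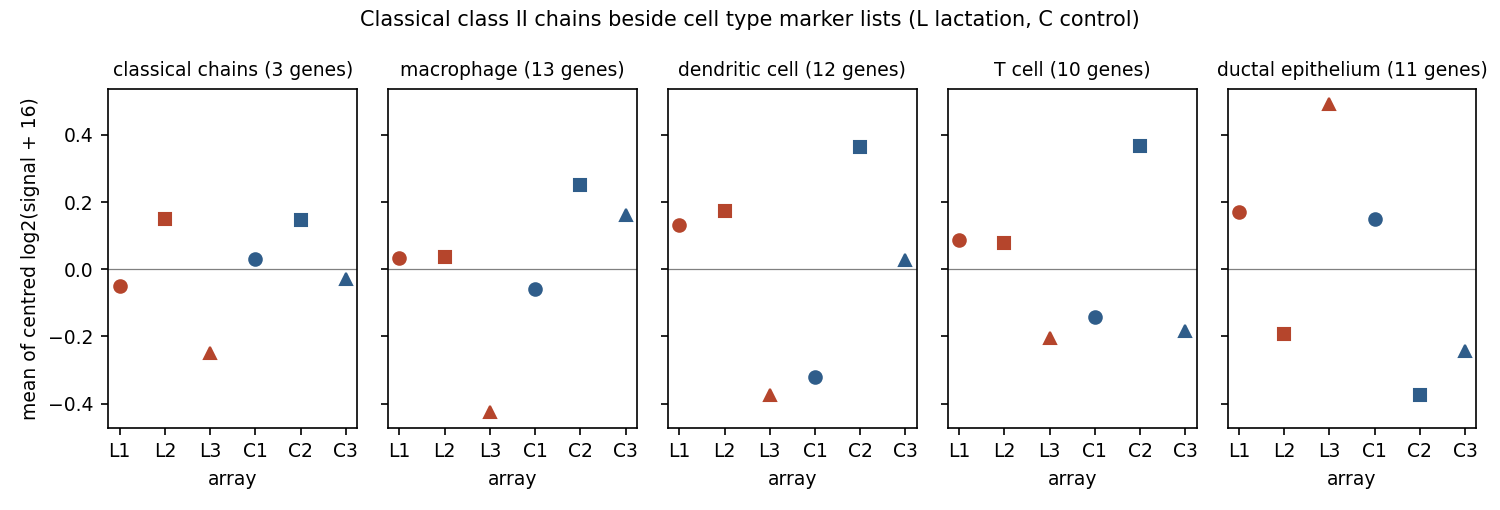
Mean of centred log2(signal + 16) values (vertical axis, log2 units) on each array for the classical chains and for marker lists of macrophages, dendritic cells, T cells and ductal epithelium, with lactation arrays L1 to L3 in red and control arrays C1 to C3 in blue. L3 is the lowest array for the chains (-0.25), the macrophage list (-0.43), the dendritic cell list (-0.37) and the T cell list (-0.20), and the highest for the ductal list (0.49). C1 is also low for the dendritic cell list (-0.32) and the T cell list (-0.14), and is at 0.03 for the chains.

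Among 20 further genes of the class II pathway 18 could be tested, 6 with a positive and 12 with a negative difference, a median of -0.09 and 0 past the adjusted threshold. Rfx5, a subunit of the X box complex RFX, had the largest difference. It read 763, 706 and 644 in lactation and 536, 531 and 493 in controls, so every lactation tumour lay above every control. The difference was 0.42 with a standard error of 0.11 (limma, unadjusted p = 0.00504, adjusted p = 1).

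The 2 other subunits of that complex, named after their values were seen, also had groups that did not overlap and went in different directions. Rfxank read 271, 309 and 285 in lactation against 269, 230 and 209 in controls, a difference of 0.28 with a standard error of 0.14. Rfxap read 471, 574 and 494 against 581, 722 and 610, a difference of -0.30 with a standard error of 0.13. These 3 were the tested genes of the list with groups that did not overlap, beside 6.9% of all genes tested. The NF-Y subunits Nfya, Nfyb and Nfyc, which bind the Y box, had differences from -0.0038 to 0.08.

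The ligase and proteases described next had lower means and overlapping groups. Marchf1, a ubiquitin ligase that takes class II molecules off the surface, read 363, 376 and 185 in lactation and 322, 486 and 382 in controls, a difference of -0.39 with a standard error of 0.29. Lgmn, an endolysosomal protease that helps cut antigens and the invariant chain, read 4427, 4873 and 3008 against 4228, 5529 and 5838, a difference of -0.36 with a standard error of 0.20. In both, lactation replicate 3 was the lowest array, and without it the differences of Marchf1 and Lgmn were -0.08 and -0.15. Ctss, the cathepsin that trims the invariant chain in antigen-presenting cells, had a difference of -0.12 with a standard error of 0.09.

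Of 10 genes through which interferon gamma reaches Ciita, 8 could be tested, 7 positive and 1 negative, with a median of 0.05 and 0 called. Irf1, a transcription factor that acts on a Ciita promoter, read 3571, 5134 and 4915 in lactation and 3139, 3621 and 3412 in controls. Control replicate 2 lay just above lactation replicate 1, and the difference was 0.40 with a standard error of 0.15 (limma, unadjusted p = 0.0268, adjusted p = 1). The receptor kinases Jak2 and Jak1 had differences of 0.15 and -0.09 with standard errors of 0.08 and 0.11. The groups did not overlap for Jak2, as for 6.9% of all genes tested. With its probe sets averaged, Jak2 had a difference of 0.08 with a standard error of 0.09. Ifng itself lay below the level filter.

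Of 9 co-stimulatory genes and class II ligands 7 could be tested, 1 positive and 6 negative, with a median of -0.13 and 0 called. Lag3, an inhibitory receptor that binds class II molecules, read 92.3, 155 and 50.7 in lactation and 80.7, 126 and 126 in controls, so the lactation tumours spread over the whole range. Its difference was -0.22 with a standard error of 0.37. Icosl and Cd40, co-stimulatory molecules of presenting cells, had differences of -0.22 and 0.18 with standard errors of 0.17 and 0.23. Cd4 lay below the level filter.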

How the data were processed

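The deposited table gives linear intensity values for 45101 probe sets on 6 arrays. The submitters' processing notes name MAS5, without a version, and no scanner files or detection calls were used. The trimmed mean (2% off each end) was 500.0 on every array, and no further normalization was applied. Probe sets with 1 gene symbol (34958) were named, those with several (932) or none (9211) were not, and each gene was read from its brightest probe set by mean. Values were taken as log2(signal + 16) and the groups compared with limma 3.58.1 in R 4.3.3 (lmFit with group alone, then eBayes with its trend option), with Benjamini-Hochberg adjustment over 11623 genes. Intervals use 3.07 prior and 4 residual degrees of freedom. The fit was tested on simulated data. Tables and plots used Python 3.11.15, pandas 2.3.3, scipy 1.17.1 and matplotlib 3.10.9.

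The members and gene lists were chosen with earlier results of these data known. Named beside the members were up to 3 tested genes with the largest difference in each pathway list and the 5 genes most like the chains. List entries with no single-gene probe set were not analysed here. Alternatives were other scalings, constants of 1 and 64, no filter or one at the 70th percentile, the mean of probe sets or each alone, other eBayes settings, array weights, a replicate block and leaving out each array. P-values of limma set a difference against the spread between these tumours, with variance information shared over genes. Exact permutation p-values count rearrangements of the arrays.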

Additional observations from a re-analysis of the deposited data

How the results depend on the processing

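In limma 0 genes passed in the main fit and in all 18 alternatives, with 137 to 652 at an unadjusted p under 0.05 (264 in the main fit), and no member had an adjusted p under 0.891 in any of them. H2-Ab1 stayed negative (-0.26 to -0.03) and Ciita positive (0.12 to 0.43) throughout. The other filters, the other eBayes settings and the replicate block cannot change a gene's difference, so its sign there was fixed in advance. Differences near 0 changed sign. H2-Aa was 0.078 with probe set 1443783_x_at, Cd74 0.021 after quantile normalization, and H2-DMa -0.037 with arrays centred on their medians and -0.11 with array weights. Leaving out 1 array gave -0.23 to -0.041 for H2-Aa, -0.26 to -0.033 for H2-Ab1, -0.12 to 0.075 for H2-Eb1, -0.079 to 0.046 for Cd74, -0.16 to 0.18 for H2-DMa, -0.24 to 0.16 for H2-Oa and 0.17 to 0.39 for Ciita. Sign changes came without lactation replicate 3 (H2-Eb1 0.075, Cd74 0.046, H2-Oa 0.16), without control replicate 2 (H2-Eb1 0.038, Cd74 0.039, H2-Oa 0.14), and for Cd74 or H2-DMa without lactation replicate 1 (0.031) or 2 (-0.16), without control replicate 1 (0.0054 and -0.091) and without control replicate 3 (H2-DMa -0.061, H2-Oa 0.033). Relative to H2-Ab1, Ciita differed by 0.31 to 0.48, Cd74 by 0.078 to 0.19, H2-DMa by 0.076 to 0.28 and H2-Oa by -0.054 to 0.24 when an array was left out, the latter negative without lactation replicate 1 (-0.016) or control replicate 1 (-0.054). Of the other named genes, Icosl was 0.053 when its probe sets were averaged, Jak1 ranged from -0.17 to 0.012 (positive without control replicate 3) and Cd40 from -0.0063 (without control replicate 1) to 0.35. Without lactation replicate 3, Lag3, Hcls1, Aif1, Lair1, Pld4 and Rnase6 were 0.12, 0.016, 0.093, 0.032, -0.057 and -0.038, and without lactation replicate 2 they were -0.56, -0.40, -0.45, -0.53, -0.58 and -0.48. The cause of these changes was not tested. H2-Oa did not pass the filter at the 70th percentile, and the comparisons planned for H2-DMb1 were not run, since it had no probe set of its own.

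The replicate block left 0 genes called, with 289 at an unadjusted p under 0.05. Each replicate number occurs in both groups, so the block cannot change the members' differences (H2-Ab1 -0.14, Ciita 0.26). It changes only their standard errors, from 0.12 to 0.09 for H2-Ab1 and from 0.16 to 0.13 for Ciita. The standard error fell for every measured member except H2-Oa (0.253 to 0.259). Same-numbered arrays deviated together with correlations of 0.143, -0.083 and 0.267, and lactation replicate 1 correlated best with control replicate 2 (0.458), so the numbers were not taken to pair the tumours. With 3 arrays a group, standard errors of the differences had a median of 0.137, which limits what could be detected.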
